A study of Mus musculus with 10 samples.

Results

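Ribosomal protein pseudogenes are copies of the genes that encode the proteins of the ribosome. The 51 described here were chosen by 2 conditions. The mouse symbol starts with Rpl or Rps and contains -ps, and the deposited TPM (a share of all transcripts, per length) was at least 1 in at least 2 of the 10 libraries. The files held 194 such symbols among 28987 gene IDs, and 13056 IDs of any kind passed the same TPM condition. Because measured levels chose these copies, their levels are given as a description. Each copy was set beside the gene named before -ps, called its parent, which gave 34 parents. There were 33 copies of large-subunit genes and 18 of small-subunit genes, and 7 lay on chromosome X. GENCODE annotates 3 of the 51 as protein-coding (Rpl9-ps6, Rps12-ps3 and Rpl36a-ps1). The parent had 1 such copy in 23 families, and Rpl17 had the most, with 4.

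The libraries were single-end RNA-seq of total RNA from ileal crypts, which were shaken off the tissue in EDTA buffer. Ctrl (3 libraries) is labelled VilCreER;Stat5 (STAT5+/+), KO (2 libraries) is labelled VilCreER;Stat5 (STAT5IEC-/-), and OE (5 libraries) is labelled VilCreER;icS5 (STAT5IEC+++). VilCreER is a Cre recombinase fused to an estrogen receptor domain under the villin promoter, which is active in the intestinal epithelium, and all 3 groups carry it. The labels do not spell out icS5, and no control of that line was analysed here. All mice are labelled C57Bl6, male and 12 weeks old. The labels give no animal identifiers, so each p-value covers only the spread among these samples, which may be technical.

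A ribosome consists of a small subunit, which reads the mRNA, and a large subunit, which forms peptide bonds, and their proteins are made from some of the most abundant mRNAs of dividing cells such as those of the crypt. Processed pseudogenes arise when an mRNA is copied back into DNA and inserted elsewhere in the genome. They lack the introns of the parent, and most have no promoter of their own. A short read from spliced parent mRNA can therefore have the same letters as the copy.

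The copies were nearly the same sequence as their parents. In GENCODE M21 transcripts of GRCm38 (mm10), each of the 51 had a single exon. The copies were aligned only to protein-coding ribosomal protein genes, and among these the named parent was the best match for 51 of 51. Identity to the parent mRNA had a median of 99.3% (86.5 to 100%), and the median copy was 449 bases long. Of the 50-base windows in a copy, the share found letter for letter in a parent transcript had a median of 73.5%, and it was 100% in 10 copies. Of the 143 copies with -ps symbols that did not pass the TPM condition, 139 aligned to their parent, and the median share of these was 13.2%. For the 51, the share found in any annotated gene other than the copy itself, the parent included, had a median of 88.3%. Of the windows that a copy shared with its parent, a median of 42.1% spanned an exon junction of the parent, so that an intron interrupts them at the parent's own locus. The stretches below, from copies that the results turn on, have differing bases in capitals. For Rpl38-ps2, Rps12-ps3, Rpl34-ps1 and Rpl35a-ps3 the stretch is centred on the exon junction nearest the middle of the coding sequence. For Rps2-ps13, Rps13-ps6 and Rps15a-ps8 it is the stretch across 1 junction with the most differences, so it overstates how far the whole copy differs. They run 5′ to 3′ on the transcript strand. Rpl38-ps2 at chr6:140747069-140747148 (minus strand) and Rps12-ps3 at chr19:59322565-59322644 (plus strand) had no difference from the spliced parent over 80 bases. The first stretch is centred on the junction of exons 3 and 4 of Rpl38, and the second on the junction of exons 4 and 5 of Rps12.
Rpl38-ps2 and Rpl38: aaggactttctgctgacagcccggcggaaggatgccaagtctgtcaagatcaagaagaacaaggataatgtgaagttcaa
Rps12-ps3 and Rps12: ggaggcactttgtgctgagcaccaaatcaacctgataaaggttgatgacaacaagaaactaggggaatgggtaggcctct
A further 3 pairs carry the results below and had 1 or 2 differences. They are Rps2-ps13 at chrX:52898961-52899040 (plus strand), Rpl34-ps1 at chr6:71124735-71124814 (plus strand) and Rpl35a-ps3 at chr17:29137101-29137180 (minus strand).
Rps2-ps13: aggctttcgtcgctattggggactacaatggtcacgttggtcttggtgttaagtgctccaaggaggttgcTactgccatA
Rps2: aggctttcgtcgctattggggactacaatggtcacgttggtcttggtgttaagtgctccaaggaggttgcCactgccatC
Rpl34-ps1: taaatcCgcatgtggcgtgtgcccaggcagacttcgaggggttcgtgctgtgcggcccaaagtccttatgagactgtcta
Rpl34: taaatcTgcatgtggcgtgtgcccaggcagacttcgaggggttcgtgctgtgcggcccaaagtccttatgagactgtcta
Rpl35a-ps3: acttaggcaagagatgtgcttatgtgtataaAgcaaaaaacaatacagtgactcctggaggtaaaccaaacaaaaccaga
Rpl35a: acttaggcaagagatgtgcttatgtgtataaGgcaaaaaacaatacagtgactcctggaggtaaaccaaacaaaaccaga
The 2 copies of lowest identity are shown for contrast. Rps13-ps6 at chr2:143855736-143855815 (plus strand) had 10 differences in the stretch, and Rps15a-ps8 at chr4:53791100-53791179 (minus strand) had 11. Over the whole alignment they had 36 mismatched bases in 453 and 30 in 387.
Rps13-ps6: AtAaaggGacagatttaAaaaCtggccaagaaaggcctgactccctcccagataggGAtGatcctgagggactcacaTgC
Rps13: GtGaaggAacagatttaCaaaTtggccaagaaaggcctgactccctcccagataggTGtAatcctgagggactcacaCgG
Rps15a-ps8: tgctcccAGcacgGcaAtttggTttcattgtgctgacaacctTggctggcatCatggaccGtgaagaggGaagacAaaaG
Rps15a: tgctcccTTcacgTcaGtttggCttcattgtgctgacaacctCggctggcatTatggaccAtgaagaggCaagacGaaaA
Rpl35a-ps2, Rpl35a-ps3 and Rpl35a-ps4 lie on 3 chromosomes (1, 17 and 2) and have identical sequences of 333 bases.

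Several libraries stood apart from their groups. Mitochondrial transcripts took 83.7% of the TPM in Ctrl 2 and 43.3 to 57.0% in the other libraries, and the factor that scales Ctrl 2 was 0.295 against 0.831 to 1.31 elsewhere. The library labelled OE 1 had Stat5a and Stat5b at 1.56 and 1.49 scaled TPM, within the Ctrl range of 1.07 to 2.60 and 0.970 to 1.76. Y-linked genes summed to 3.45 TPM in Ctrl 3, 0.250 in OE 3 and 0.140 in OE 4, against 32.3 to 131 in the other libraries, although all mice are labelled male. Epithelial markers (Epcam, Cdh1, Vil1, Krt8 and Krt19) summed to 1981 to 4743 scaled TPM. Markers of other cell types were lower but not absent. B cell markers summed to 4.33 to 28.8 scaled TPM in Ctrl, 11.4 to 25.1 in KO and 18.5 to 174 in OE, T cell markers to 17.9 to 101, 13.5 to 28.8 and 21.8 to 92.3, and red blood cell markers to 12.8 to 39.96, 36.9 to 56.6 and 15.3 to 142. Macrophage markers summed to 0.374 to 2.87, 2.53 to 9.61 and 1.00 to 10.97, fibroblast markers to 1.63 to 15.7, 6.82 to 31.7 and 1.01 to 36.6, and smooth muscle markers to at most 1.32 in any library. Summed Paneth cell markers ranged from 399 to 6387 in Ctrl, 2686 to 6499 in KO and 3946 to 13801 in OE, and enterocyte markers from 1192 to 9827, 1165 to 1731 and 632 to 7368. The part of these differences in the results below was not tested, and in such bulk samples fewer cells of a type and less RNA per cell cannot be told apart.

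The 51 copies took between 27.2 and 38.3% of the TPM listed for ribosomal proteins. With the 80 protein-coding genes of the cytosolic ribosome in the denominator, their share was 30.8, 32.8 and 27.2% in Ctrl 1 to 3, 37.3 and 33.7% in KO 1 and 2, and 38.3, 38.2, 33.0, 33.0 and 29.3% in OE 1 to 5. The group values were 30.3 ± 2.85% (SD, n = 3), 35.5 ± 2.54% (n = 2) and 34.4 ± 3.85% (n = 5), so OE overlapped both other groups, and both KO libraries lay above the 3 Ctrl libraries. A single copy, Rpl38-ps2, made up 33.2 to 50.5% of the summed copy TPM. Without it the group shares were 19.5, 23.3 and 22.2%. Over the 10 libraries the mean TPM of a copy had a median of 19.3, against 72.4 for the 34 parents, 139.7 for the 43 other cytosolic ribosome genes that were tested, and 3.31 for 459 other processed pseudogenes that were tested. There were 18 copies that reached more than 100 TPM in at least 1 library, 23 were never listed at 0, and 28 were listed at 0 in 1 or more libraries. Of those 28, 20 reached 10 TPM or more in another library, and 11 were at 0 in 5 or more. Copies listed at 0 numbered 5 to 17 per library, with the most in Ctrl 2.

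**Figure D1:**
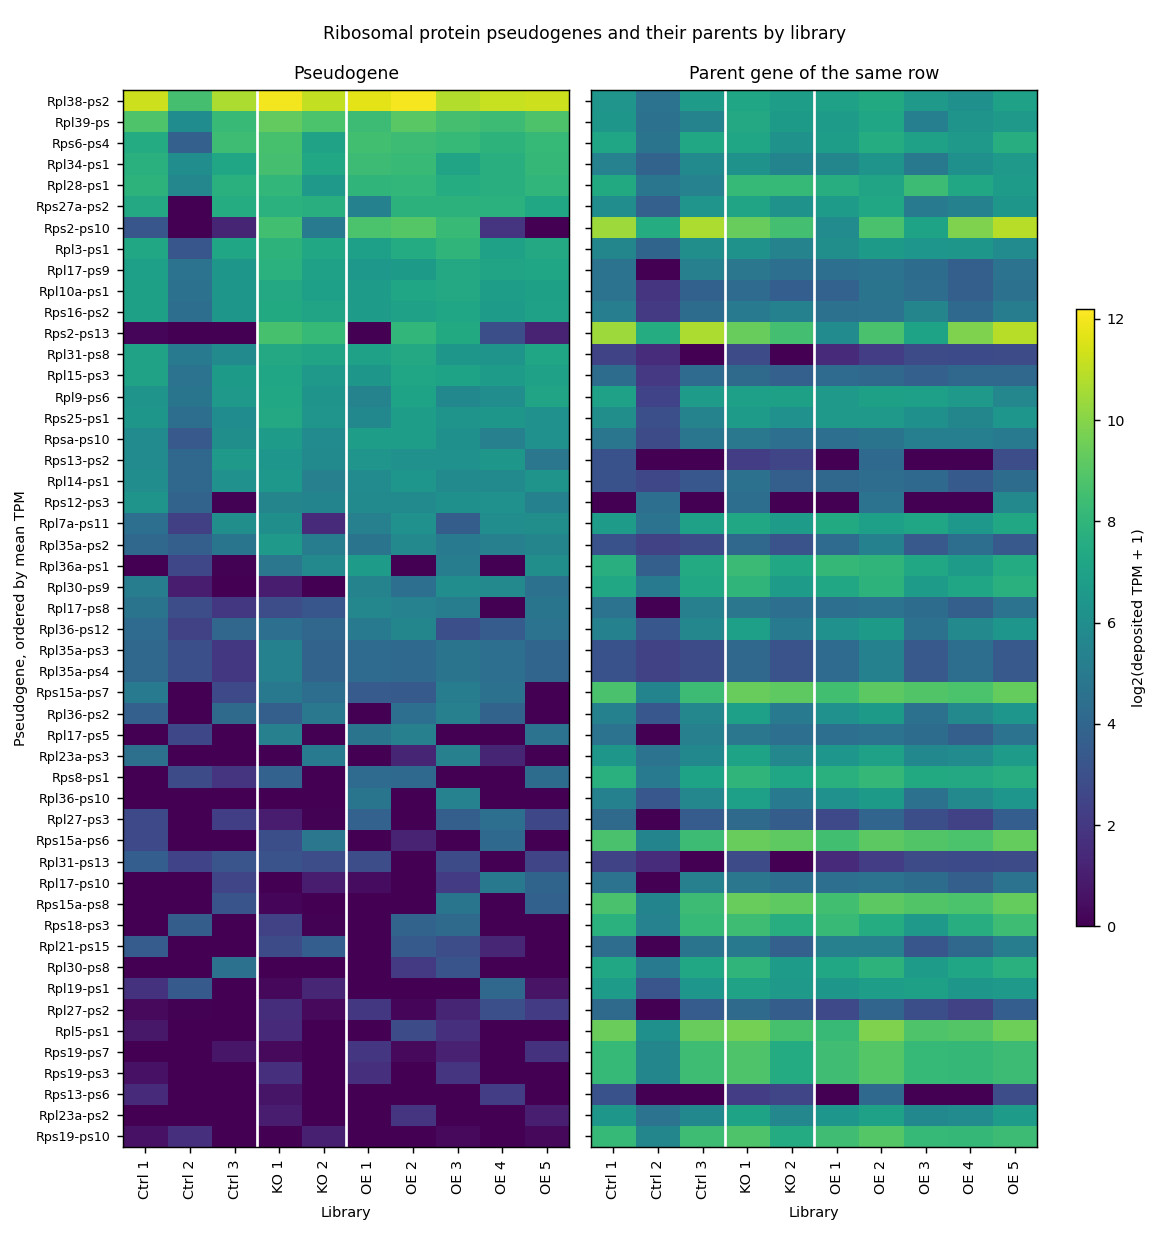
Deposited TPM of 50 of the 51 pseudogenes (left) and of the parent of each (right) in the 10 libraries, as log2(TPM + 1) in colour, with pseudogenes in rows ordered by mean TPM and white lines between Ctrl, KO and OE. Rpl38-ps2 is the brightest row on the left at 390.7 to 4236 TPM, while its parent is at 24.2 to 170 TPM, and the lower rows on the left are dark in most libraries although most of their parents are not.

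There were 12 copies listed above their parent in 10 of 10 libraries, 17 below it in 10 of 10, and 22 in neither class. The 12 were Rpl38-ps2, Rpl39-ps, Rpl34-ps1, Rpl17-ps9, Rpl10a-ps1, Rps16-ps2, Rpl31-ps8, Rpl15-ps3, Rpsa-ps10, Rps13-ps2, Rpl14-ps1 and Rpl35a-ps2, each of a different parent. All 12 were above 0 in every library. The number above the parent was 22, 22 and 19 in Ctrl 1 to 3, 22 and 20 in KO 1 and 2, and 21, 22, 26, 24 and 20 in OE 1 to 5, with no separation of the groups. The median log2 ratio of copy to parent, with 0.01 TPM added to both, was -1.06 ± 0.92 in Ctrl (SD, n = 3), -1.11 ± 0.21 in KO (n = 2) and -0.77 ± 0.52 in OE (n = 5), and these ranges overlapped.

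Among large-subunit copies, Rpl38-ps2 (chr6:140746960-140747172, minus strand) was the most abundant. Rpl38 is a large-subunit protein known from mice in which its loss alters the pattern of the vertebrae. Rpl38-ps2 was at 2451, 391 and 1635 TPM (Ctrl 1 to 3), 4024 and 2147 TPM (KO 1 and 2), and 3272, 4236, 1753, 2291 and 2509 TPM (OE 1 to 5), as deposited. Rpl38 itself was at 80.7, 24.2 and 102 TPM (Ctrl 1 to 3), 151 and 112 TPM (KO 1 and 2), and 125, 170.4, 94.3, 68.5 and 125 TPM (OE 1 to 5). Ratios of copy to parent lay between 16.0 and 33.4 with a median of 22.5, so the parent was the minor entry in each library. The copy is 213 bases long and all 164 of its 50-base windows are in Rpl38, whose mRNA has 364 bases. TPM are divided by length, and which lengths the authors used is not given in the sources used here.

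Rpl39-ps copies Rpl39, a very small protein at the exit tunnel of the large subunit. It was at 450.0, 60.3 and 303 TPM (Ctrl 1 to 3), 614 and 429 TPM (KO 1 and 2), and 327, 536, 392, 327 and 442 TPM (OE 1 to 5), and Rpl39 was at 23.3 to 161 TPM (median 92.4). The ratio was 2.59 to 10.3, with 51.0% of the windows of this 151-base copy in the parent. Rpl34-ps1 was at 213, 61.3 and 144 TPM (Ctrl 1 to 3), 387 and 155 TPM (KO 1 and 2), and 329, 301, 139, 199 and 276 TPM (OE 1 to 5), against 13.7 to 91.6 TPM (median 52.3) for Rpl34, a ratio of 2.54 to 6.87. In both pairs the parent was at 13.7 TPM or more in every library, and the copy was the larger entry throughout.

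Rpl10a-ps1, Rpl15-ps3 and Rpl17-ps9 copy structural proteins of the large subunit, and the last of these sits near the exit tunnel. Rpl10a-ps1 was at 122, 23.6 and 85.4 TPM (Ctrl 1 to 3), 164 and 116 TPM (KO 1 and 2), and 107, 148, 166, 108 and 119 TPM (OE 1 to 5). Its ratio to Rpl10a was 5.09 to 9.89, one of the narrowest ranges, and the copy has all 605 of its windows in the parent. Rpl15-ps3, likewise with all of its windows shared, was at 23.96 to 149 TPM (median 116) against 3.10 to 18.8 TPM (median 16.4) for Rpl15. Rpl17-ps9 was at 118, 24.3 and 86.3 TPM (Ctrl 1 to 3), 219 and 125 TPM (KO 1 and 2), and 89.7, 98.8, 165, 137 and 148 TPM (OE 1 to 5). Rpl17 was at 23.8, 0 and 39.2 TPM (Ctrl 1 to 3), 27.6 and 20.6 TPM (KO 1 and 2), and 20.6, 24.3, 19.02, 11.9 and 23.8 TPM (OE 1 to 5). It is the only parent of these that was listed at 0, in Ctrl 2, where Rpl17-ps9 had 24.3 TPM.

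Rpl28-ps1 and Rpl3-ps1 changed sides with the library. Rpl3 lies close to the centre that forms peptide bonds. Rpl3-ps1 was at 153, 8.59 and 149 TPM (Ctrl 1 to 3), 239 and 155 TPM (KO 1 and 2), and 117, 184, 251, 126 and 162 TPM (OE 1 to 5), above Rpl3 in 9 libraries and below it in Ctrl 2, where Rpl3 was at 14.2. Rpl28-ps1, which shares all of its windows with Rpl28, was at 238, 49.6 and 215 TPM (Ctrl 1 to 3), 267 and 94.7 TPM (KO 1 and 2), and 249, 269, 184, 199 and 257 TPM (OE 1 to 5). Rpl28 was at 169, 26.2 and 41.5 TPM (Ctrl 1 to 3), 287 and 292 TPM (KO 1 and 2), and 194, 136, 325, 155 and 103 TPM (OE 1 to 5). The copy was above the parent in 7 libraries and below it in KO 1, KO 2 and OE 3, the 3 libraries in which Rpl28 was highest.

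Rpl31, at the exit tunnel, was listed at 6.17 TPM or less while its copy Rpl31-ps8 was at 32.3 or more. Rpl31 was at 4.65, 1.94 and 2.36e-08 TPM (Ctrl 1 to 3), 6.17 and 0.0153 TPM (KO 1 and 2), and 1.78, 3.57, 6.02, 5.58 and 6.02 TPM (OE 1 to 5). Rpl31-ps8, which shares all of its windows with Rpl31, was at 128, 32.3 and 55.4 TPM (Ctrl 1 to 3), 161 and 138 TPM (KO 1 and 2), and 125, 162, 87.5, 77.5 and 141 TPM (OE 1 to 5). Rpl31-ps13, with 48.6% of its windows in the parent, was at 11.6, 4.53 and 8.21 TPM (Ctrl 1 to 3), 7.72 and 6.33 TPM (KO 1 and 2), and 6.47, 0, 6.25, 0 and 4.79 TPM (OE 1 to 5). Together the copies took 93.3 to 100% of the TPM of this family.

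Among small-subunit copies, Rps16-ps2 stayed within a narrow band relative to Rps16. It was at 122, 20.1 and 85.9 TPM (Ctrl 1 to 3), 167 and 139 TPM (KO 1 and 2), and 106, 126, 149, 104 and 125 TPM (OE 1 to 5), with a ratio of 3.28 to 6.33. Rps6-ps4 copies Rps6, the protein that S6 kinases phosphorylate. It was at 182, 12.4 and 344 TPM (Ctrl 1 to 3), 405 and 131 TPM (KO 1 and 2), and 363, 328, 286, 239 and 291 TPM (OE 1 to 5). Rps6 was at 142, 24.8 and 151 TPM (Ctrl 1 to 3), 147 and 75.4 TPM (KO 1 and 2), and 112, 187, 124, 96.6 and 193 TPM (OE 1 to 5). The copy was the larger entry in 9 libraries and the smaller in Ctrl 2. Rps27a encodes ubiquitin fused to a small-subunit protein, and Rps27a-ps2 was at 164, 0.00374 and 186 TPM (Ctrl 1 to 3), 221 and 206 TPM (KO 1 and 2), and 40.2, 228, 228, 223 and 155 TPM (OE 1 to 5). Its parent was at 12.5 TPM in Ctrl 2, where the copy was almost at 0.

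Rps12 and Rps13, both small-subunit proteins, were listed at or near 0 in several libraries although growing cells use them. Rps12 was at 0.000101, 21.04 and 0 TPM (Ctrl 1 to 3), 19.98 and 0 TPM (KO 1 and 2), and 0, 24.3, 5.20e-06, 0 and 52.8 TPM (OE 1 to 5). Rps12-ps3 was at 79.4, 13.9 and 0.0497 TPM (Ctrl 1 to 3), 46.7 and 45.04 TPM (KO 1 and 2), and 55.4, 54.5, 68.1, 70.8 and 39.5 TPM (OE 1 to 5). In Ctrl 3 both were at or near 0, and another copy, Rps12l1 (100% identity over 399 bases), was at 51.1 TPM there. It had 20.6 TPM in KO 1 and at most 0.00643 in the other 8 libraries. Rps13 was at 7.50, 0 and 0 TPM (Ctrl 1 to 3), 3.57 and 4.91 TPM (KO 1 and 2), and 0, 16.9, 0, 0 and 6.47 TPM (OE 1 to 5). Rps13-ps2, which shares all 404 of its windows with Rps13, was at 59.1, 15.8 and 95.9 TPM (Ctrl 1 to 3), 84.8 and 56.8 TPM (KO 1 and 2), and 82.4, 69.9, 71.9, 86.1 and 27.6 TPM (OE 1 to 5), above the parent in 10 of 10. In scaled TPM it was lowest in OE 5, at 24.7, and Rps13-ps1, a copy that did not pass the TPM condition, had 66.1 TPM in that library and was listed at 0 in the others.

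**Figure D2:**
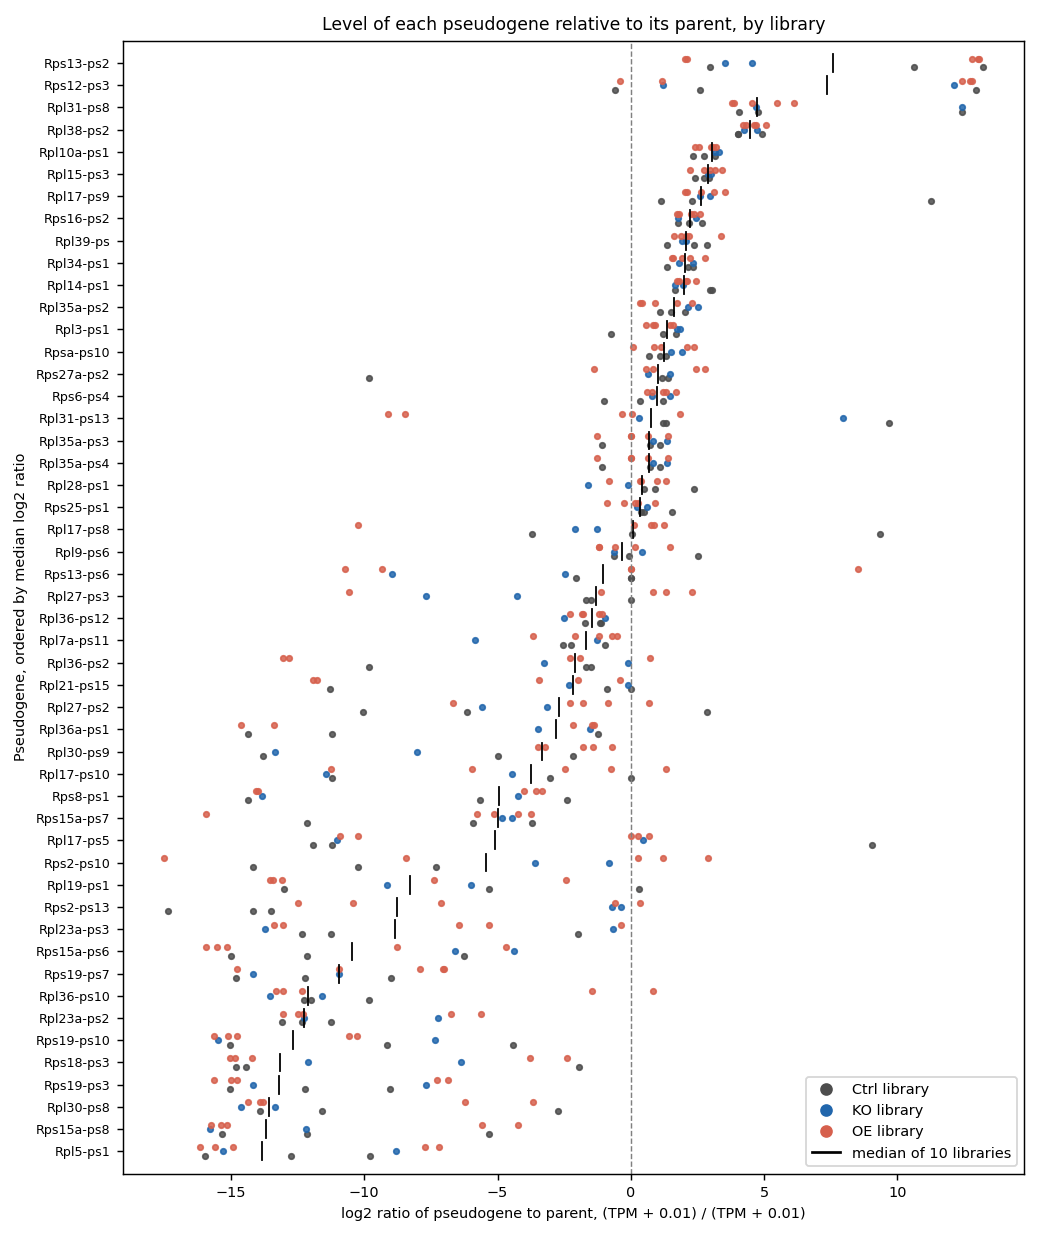
Log2 ratio of deposited TPM to the parent for 50 of the 51 pseudogenes, with 0.01 TPM added to both, where each point is 1 library coloured by group and each bar is the median of 10 libraries. Points of Ctrl, KO and OE are mixed in most rows, and ratios vary over more than 10 log2 units where the copy or the parent is listed at 0 in some libraries.

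The 5 copies with the widest span of the ratio were Rpl17-ps5 (20.97 log2 units), Rps2-ps10 (20.39), Rpl17-ps8 (19.55), Rps13-ps6 (19.23) and Rpl31-ps13 (18.81). Values at 0 set these spans, so they depend on the 0.01 TPM that was added. Rpl17-ps5 was at 0, 5.24 and 0 TPM (Ctrl 1 to 3), 38.3 and 0 TPM (KO 1 and 2), and 24.7, 39.1, 0, 1.66e-08 and 23.8 TPM (OE 1 to 5). Rpl17-ps8 was at 24.7, 6.42 and 2.97 TPM (Ctrl 1 to 3), 6.40 and 8.64 TPM (KO 1 and 2), and 49.2, 41.00, 34.5, 0 and 26.1 TPM (OE 1 to 5). Of the windows of Rpl17-ps5, 80.2% are found in Rpl17-ps8. Rps13-ps6 was at 1.80 TPM in Ctrl 1, 0.635 in KO 1 and 3.63 in OE 4, and was listed at 0 in the other 7 libraries.

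Copies below their parent in all libraries included the lowest. Rps15a-ps6, Rps15a-ps7 and Rps15a-ps8 were at no more than 27.7, 35.1 and 25.4 TPM, while Rps15a was at 44.9 to 648. Rps19, known for mutations in Diamond-Blackfan anaemia, was at 48.2 to 511 TPM, and its 3 copies never exceeded 2.76 TPM. Rpl5-ps1 reached 6.19 TPM against 68.0 to 915 for Rpl5, a protein that binds the 5S rRNA. Rpl7a-ps11 and Rpl36-ps12 were the 2 of the 17 that were never at 0.

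Level and likeness to the parent went together across the copies. Of the 10 copies with all windows in the parent, 6 were above the parent in 10 of 10 libraries and 0 were below it in 10 of 10, and the median log2 ratio was 2.98. Among 31 copies with 50 to under 100% of windows shared, 6 were above and 11 below, with a median of -2.10. Of 10 copies under 50%, 0 were above and 6 below, with a median of -11.54. Each of these 10 was listed at 0 in at least 1 library. Their median ratios, and the correlation with the ratio below, thus depend in part on the 0.01 TPM that was added. Across the 51 copies the share of windows correlated with the median log2 ratio at Pearson's r = 0.67 and Spearman's rho = 0.67, and with the log2 mean TPM at 0.75 and 0.68. These describe 51 copies measured in the same libraries, chosen by level and partly of the same parents, so no p is given. The one fully shared copy below its parent in the median was Rpl27-ps3, and Gm11518, a further copy with 100% identity to Rpl27 over 411 bases, was at 53.5 to 359 TPM while Rpl27 was at 0 to 17.8.

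**Figure D3:**
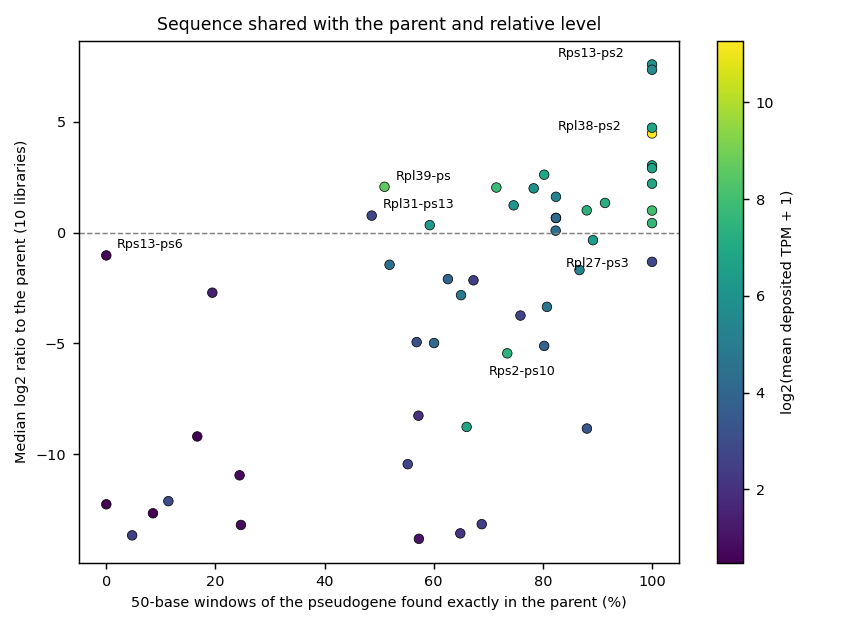
Share of the 50-base windows of each pseudogene found exactly in a parent transcript (horizontal, %) against the median log2 ratio of pseudogene to parent over 10 libraries (vertical, 0.01 TPM added to both), with colour for log2(mean TPM + 1). Copies at 100% lie mostly above the dashed line of equal TPM, and copies under 50% lie mostly more than 5 log2 units below it. The latter were each listed at 0 in at least 1 library, so their distance from the line depends in part on the 0.01 TPM.

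The 3 copies of Rpl35a have 1 sequence but not 1 set of values. Rpl35a-ps3 and Rpl35a-ps4, identical in sequence, had the same TPM in every library, 15.7, 6.79 and 2.97 TPM (Ctrl 1 to 3), 40.4 and 13.8 TPM (KO 1 and 2), and 18.4, 16.9, 24.95, 20.95 and 14.6 TPM (OE 1 to 5). Rpl35a-ps2, with the same 333 bases, was at 15.7, 11.9 and 25.6 TPM (Ctrl 1 to 3), 91.6 and 34.3 TPM (KO 1 and 2), and 25.1, 51.8, 31.3, 38.96 and 46.3 TPM (OE 1 to 5). It equalled the other pair in Ctrl 1 and was higher in the other 9 libraries. Rpl35a was at 4.17 to 40.5 TPM (median 9.47).

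In the Rps2 family the entry that held most TPM differed between libraries. Rps2 is a small-subunit protein near the path of the mRNA, and its copies are Rps2-ps13 (chrX:52898588-52899469, plus strand) and Rps2-ps10 (chromosome 18). Rps2 was at 1353, 186 and 1665 TPM (Ctrl 1 to 3), 649 and 373 TPM (KO 1 and 2), and 57.9, 408, 133, 923 and 1866 TPM (OE 1 to 5). Rps2-ps13 was at 0.107, 0 and 0 TPM (Ctrl 1 to 3), 399 and 289.9 TPM (KO 1 and 2), and 2.76e-08, 270.1, 168, 6.70 and 1.34 TPM (OE 1 to 5). Rps2-ps10 was at 8.51, 0 and 1.36 TPM (Ctrl 1 to 3), 365 and 31.04 TPM (KO 1 and 2), and 426, 498, 308, 2.68 and 0 TPM (OE 1 to 5). Of the sum of these 3 entries, Rps2 held 99.4, 100 and 99.9% in Ctrl 1 to 3, 45.9 and 53.7% in KO 1 and 2, and 12.0, 34.7, 21.8, 99.0 and 99.9% in OE 1 to 5. OE 4 and OE 5 were thus like the Ctrl libraries, and OE 1 to 3 and both KO libraries had from 46.3 to 88.0% of the sum in the copies. The libraries near 0 for Y-linked genes were on both sides (Ctrl 3 and OE 4 on one, OE 3 on the other). In scaled TPM the sum was 632 to 1277 in Ctrl, 662 to 1169 in KO and 521 to 1672 in OE, and these ranges overlap. Both copies share much with Rps2: 73.5% of the windows of Rps2-ps10 and 66.0% of those of Rps2-ps13 are in the parent, and 80% of those of Rps2-ps10 are in Rps2-ps13.

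**Figure D4:**
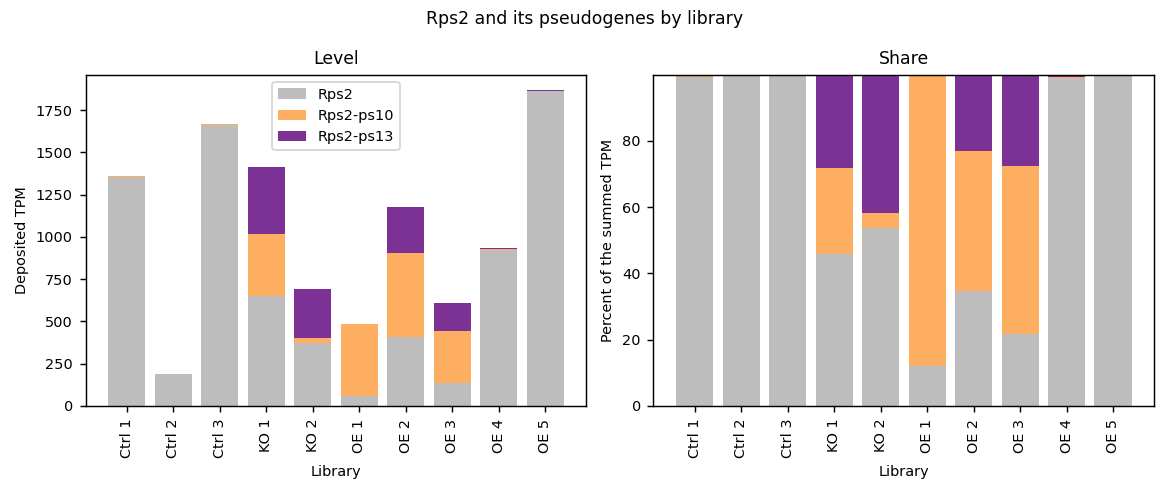
Deposited TPM of Rps2, Rps2-ps10 and Rps2-ps13 stacked by library (left) and as percent of their sum (right). Rps2 holds nearly the whole bar in Ctrl 1 to 3, OE 4 and OE 5, and 12.0 to 53.7% in KO 1, KO 2 and OE 1 to 3.

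The difference of Rps2 between groups moved with whether its copies were counted with it. On the log2(scaled TPM + 1) scale Rps2 differed by -1.14 in KO against Ctrl, -1.60 in OE against Ctrl and -0.46 in OE against KO. Without OE 1, the library whose Stat5a and Stat5b were in the Ctrl range, the differences of OE were -1.05 against Ctrl and 0.087 against KO, so the second turned direction. With Rps2-ps10 and Rps2-ps13 added the differences were -0.13, -0.24 and -0.11, and with all annotated and other-named copies added they were 0.17, -0.09 and -0.27. None of these passed the limma threshold of an adjusted p of 0.05.

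Sums of copies and parent had a smaller spread than the parent in most families. The SD of log2(scaled TPM + 1) within groups, pooled over groups, was smaller for parent and copies than for the parent alone in 25 of 34 families, and in 27 of 34 with all other copies of at least 90% identity added. Its median was 0.565 for the parents alone, 0.434 with the copies and 0.397 with all other copies. For Rps13 it went from 1.65 to 0.493 and 0.254, for Rps12 from 3.03 to 2.00 and 0.484, and for Rpl17 from 1.49 to 0.288 and 0.372. It was larger with the copies for Rps6 (0.397 and 0.608), Rpsa (0.226 and 0.400) and Rpl3 (0.251 and 0.398). A sum has more terms than the parent alone, and the part of this in the smaller spread was not tested.

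In KO against Ctrl, most copies had a positive difference, and none passed the test. The question is whether loss of Stat5, a transcription factor of cytokine signalling, from the epithelium goes with other levels. limma called 0 of 51 copies and 0 of 13056 genes (0% of the genes), and 7 copies and 452 genes (3.46%) had an unadjusted p under 0.05. The median log2 difference of the copies was 0.57 (34 positive, 16 negative, and Rpl36-ps10 listed at 0 in both groups), against 0.04 for all genes, 0.53 for the parents and 0.59 for 77 cytosolic ribosome genes. Over all genes, 6926 were positive and 6100 negative. Scaled TPM of both KO libraries lay above all Ctrl libraries for 15 copies and below them for 0, and over all genes these shares were 9.09% and 7.27%. Of the 77 ribosome genes, 27 lay above and 1 below, which was Rps2. The median of the copies was 0.09 without KO 1 and 0.96 without KO 2, so its size rests on KO 1. It was 0.48 without Ctrl 2 and 0.34 without Ctrl 3, OE 3 and OE 4. Of other processed pseudogenes, 33 of 459 lay above and 25 below, with a median of 0.

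Rps2-ps13 had the smallest p of any copy in KO against Ctrl. It was at 303 ± 38.02 in KO (scaled TPM, SD, n = 2) and at 0.0876, 0 and 0 in Ctrl 1 to 3. It was under 1 TPM in every Ctrl library, so the TPM condition chose it through KO and OE libraries. The log2 difference, 8.20, is thus given as a value only. With only the Ctrl and KO libraries in the fit limma called it, and with no other alternative. That call cannot support a difference, because the TPM condition chose the copy through its KO and OE values. Rps16-ps2 was at 135 ± 3.88 against 77.96 ± 18.9 scaled TPM in Ctrl (n = 3), a difference of 0.81 (SE 0.28, 95% interval 0.19 to 1.44, limma adjusted p = 0.943). Rpl17-ps9 was at 150.4 ± 43.8 against 81.6 ± 15.1, a difference of 0.86 (SE 0.33, 95% interval 0.13 to 1.59, limma adjusted p = 0.943). Rpl38-ps2 was at 2688 ± 905 against 1529.6 ± 416, a difference of 0.80, and Rpl38 differed by 0.61. The copies with the smallest p among the negative differences were Rpl30-ps9 (-1.91), Rpl19-ps1 (-1.49) and Rpl30-ps8, which was listed at 0 in both KO libraries and at 22.9 TPM in Ctrl 3 alone of the Ctrl libraries. Single Ctrl libraries carry these values. Without Ctrl 1 the difference of Rpl30-ps9 was -0.64, without Ctrl 2 that of Rpl19-ps1 was -0.043, and without Ctrl 3 that of Rpl30-ps8 was 0.

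In OE against Ctrl, which shares the Ctrl libraries with the comparison above, 42 copies had a positive difference and 9 a negative one, and none passed the test. Over all 13056 genes, 6808 were positive and 6248 negative. OE has the most libraries, so a copy can more easily meet the TPM condition through it, and 2 copies were listed at 0 in all Ctrl libraries. The part of this in the count was not tested. limma called 0 of 51 copies and 0 of 13056 genes (0%), while 6 copies and 797 genes (6.1%) had an unadjusted p under 0.05. The median of the copies was 0.51, against 0.02 for all genes, 0.53 for parents and 0.54 for the 77 ribosome genes. It was 0.44 without Ctrl 2, 0.48 without OE 1 and 0.50 without Ctrl 3, OE 3 and OE 4. No copy had OE libraries wholly above or wholly below Ctrl, against 2.21% and 1.52% of all genes, and 15 of the 77 ribosome genes lay wholly above. Rpl30-ps9 was at 34.5, 0.982 and 0.000663 TPM (Ctrl 1 to 3), 0.953 and 0 TPM (KO 1 and 2), and 43.4, 21.1, 62.7, 53.01 and 22.6 TPM (OE 1 to 5), as deposited, and its parent Rpl30 was at 30.9 to 253. In scaled TPM it was at 37.4 ± 17.9 in OE (SD, n = 5) and 10.5 ± 15.4 in Ctrl (n = 3), with Ctrl 1 inside the OE range, and the difference was 2.78 (SE 0.89, 95% interval 0.80 to 4.75, limma adjusted p = 0.755). It was 1.61 without Ctrl 3. Rpl27-ps2 was at 2.71 ± 2.20 against 0.137 ± 0.118, a difference of 1.46. Rps2-ps13 differed by 3.71, with OE 1 at 3.32e-08, OE 5 at 1.20 and the highest, OE 2, at 207 scaled TPM. Both Rpl27-ps2 and Rps2-ps13 were under 1 TPM in every Ctrl library, so the TPM condition chose them through KO and OE libraries. Their differences from Ctrl are given as values only. On the negative side were Rpl31-ps13 (-1.79), Rps19-ps10 (-1.10) and Rpl19-ps1 (-1.36). Without Ctrl 2 the difference of Rps19-ps10 was -0.15, and that of Rpl19-ps1 turned to 0.082. With the replicate number of the labels as a block, 1 copy was called, Rps2-ps10 (log2 difference 7.20, limma adjusted p = 0.0494, against 4.12 and 0.755 without the block). Replicate numbers 4 and 5 occur only in OE, so the block takes OE 4 and OE 5 out of this difference. Rps2-ps10 was at 2.68 and 0 TPM in these 2 libraries, as deposited, so the larger difference cannot be credited to pairing.

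In OE against KO, whose libraries also enter the comparisons with Ctrl, the copies had no common direction. limma called 0 of 51 copies and 0 of 13056 genes (0%), while 4 copies and 385 genes (2.95%) had an unadjusted p under 0.05. Differences were positive for 23 copies and negative for 28, with a median of -0.06 against -0.00062 for all genes. Over all genes, 6514 were positive and 6538 negative. OE lay wholly above KO for 1 copy, Rpl30-ps9, and wholly below for 2, Rps16-ps2 and Rps2-ps13, against 4.04% and 4.43% of all genes. Rpl30-ps9 differed by 4.69, from 0.394 ± 0.557 in KO (scaled TPM, SD, n = 2). It was under 1 TPM in both KO libraries, and of the Ctrl libraries only Ctrl 1 reached 1 TPM. The TPM condition thus chose Rpl30-ps9 through OE libraries, and its difference is given as a value only. Rps2-ps13 differed by -4.50 (SE 1.84, 95% interval -8.57 to -0.42, limma adjusted p = 1.00). Rpl27-ps3 (2.43), Rps19-ps7 (0.89), Rps15a-ps6 (-2.76) and Rps25-ps1 (-0.55) were next by p, and their groups overlapped. Rps19-ps7 reached 1 TPM in OE libraries only and was at most at 0.220 TPM in KO. The TPM condition thus chose it through OE, and its difference is given as a value only. Rps25-ps1 was at -0.17 without KO 1, and Rps15a-ps6 at -1.72 without KO 2. Rps25-ps1 copies a small-subunit protein known for its part in internal initiation of translation, and was at 61.6 ± 13.1 scaled TPM in Ctrl, 107 ± 39.3 in KO and 70.4 ± 10.1 in OE.

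**Figure D5:**
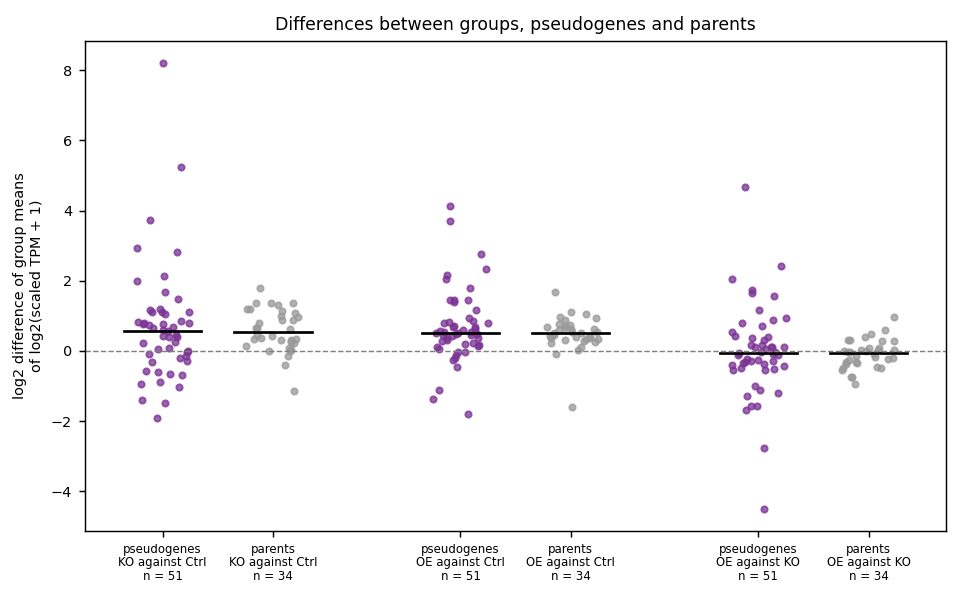
Log2 difference of group means of log2(scaled TPM + 1) for the 51 pseudogenes (purple) and their 34 parents (grey) in the 3 comparisons, where each point is 1 gene and bars are medians. The medians are 0.57 and 0.53 in KO against Ctrl, 0.51 and 0.53 in OE against Ctrl, and -0.06 and -0.07 in OE against KO, and the points of the pseudogenes spread wider than those of the parents.

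At the edge of the TPM condition, Rps19-ps10 and Rpl23a-ps2 were just inside, with a second-highest TPM of 1.13 and 1.00. Rps12-ps5 (0.796), Rps24-ps3 (0.748) and Rps6-ps1 (0.746) were just outside. Of the 51, 43 had at least 5 TPM in 2 libraries, and 21 had at least 1 TPM in all 10. Another gene overlapped 21 of the 51 copies, on the same strand for 4, and whether the authors counted by strand is not given in the sources used here.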

How the data were processed

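Total RNA of ileal crypts was sequenced single-end in 10 libraries. The authors deposited TPM for 28987 Ensembl gene IDs per library, per the file headers in 9 libraries. No unit stands in the header of Ctrl 1, so it was taken from the other files and the values. The submitters' processing notes name TopHat, Cufflinks and mm10 and give no versions. Not given in the sources used here are the tool that gave the TPM, the annotation, the read length and the treatment of reads that match several places, although each bears on how reads are split between a copy and its parent. Read numbers cannot be had from TPM. The depth is thus unknown, and counting intervals cannot be computed.

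Symbols came by ID from GENCODE M21 of GRCm38 (27458 IDs matched, 1529 did not). TPM were divided by median-ratio factors over 11146 genes above 0 in every library (scaled TPM). The 13056 genes at 1 TPM or more in 2 or more libraries were fitted with limma 3.58.1 (R 4.3.3), with an intensity trend, on log2(scaled TPM + 1), which understates differences of low genes. All 10 libraries entered with 3 group means, and p-values were Benjamini-Hochberg adjusted over all genes, with a threshold of 0.05. The fit was also run on simulated data, drawn as independent normal values around the mean of each gene. Those lack the switches between 0 and high TPM seen in several copies, so they do not check the fit for such copies. Identity was aligned with blastn 2.17.0, and windows of 50 bases were matched exactly, in Python 3.11.15.

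Given by library were the 12 most abundant copies, those with the 3 smallest p in each direction of each comparison, the 5 with the widest ratio, and their parents. Rpl15-ps3, Rpl31-ps8, Rps12, Rps12-ps3, Rps13-ps2, the Rpl35a copies and the examples of copies below their parent were added after their values were seen. The values of 1 copy are not reported here, and it enters only counts, medians and unnamed points. The copies, lists and rules were chosen with earlier results of these data known. The labels tie the replicate numbers to no animals, litters or days, so the fit reported has no block. Deviations of same-numbered libraries from their group means correlated at -0.18 to 0.06. Alternatives were other scalings, pseudocounts and filters, fewer groups or libraries, robust fits, a replicate block and summed copies. Marker lists were summed for crypt epithelium, stem cells, Paneth cells, enterocytes, goblet, enteroendocrine and tuft cells, T cells, B cells, macrophages, fibroblasts, smooth muscle and red blood cells.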

Additional observations from a re-analysis of the deposited data

Results flagged for a closer look

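In 27 sets of 5 OE values, 4 had 1 library set apart from the other 4 by a gap above the 95% critical value of Dixon's test (0.71 of the range). Chance gives about 1 in 20 sets where the values did not choose the sets. Here they did, through the TPM condition and the rules for the named copies (Rps13-ps6 reached 1 TPM in 2 of the 10 libraries), so that rate does not apply and the 4 are given as values only. Rps6-ps4 was at 437 scaled TPM in OE 1 and at 202 to 260.4 in the other OE libraries. The other three were highest in OE 4, one of the libraries near 0 for Y-linked genes. Rpl19-ps1 was at 13.5 scaled TPM there and at no more than 0.494 elsewhere in OE, Rps15a-ps6 was at 14.1 against at most 0.958, and Rps13-ps6 was at 3.06 against 0.

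Among copies that did not pass the TPM condition, 8 reached at least 5 TPM in 1 KO or OE library and were at or near 0 in the Ctrl libraries. Only KO and OE values above the highest Ctrl value were looked for, so a copy high in Ctrl alone could not be listed. The highest was Rps24-ps3, at 191 TPM in KO 2. Rps13-ps1 was at 66.1 TPM in OE 5, Rpl10-ps3 at 20.3 and Rpl10-ps4 at 6.21 in OE 4, and Rps12-ps9 at 8.02 in OE 2. Rpl36a-ps3 was at 6.77 TPM in OE 3, and in KO 1 Rpl13-ps6 was at 11.2 and Rps15a-ps4 at 8.89.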

How the results depend on the processing

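No copy and no gene was called in the comparisons as reported, and calls under alternatives were few. With only the groups compared, 1 gene, the copy Rps2-ps13, was called in KO against Ctrl (1 copy), and 1 gene, Gm12252, in OE against Ctrl. Rps2-ps13 met the TPM condition through KO and OE libraries only, so its call cannot support a difference. Without a filter on low values, 5 genes were called in KO against Ctrl and 7 in OE against KO, all with a TPM under the filter and none a copy described here. The replicate block called 3 genes in OE against Ctrl, of which 1 was a copy. With the block, OE 4 and OE 5 drop out of the differences of OE, since no other group has their replicate numbers. The labels do not say whether the numbers pair the libraries. Same-numbered libraries correlated at -0.18 to 0.06, which cannot decide this with so few libraries per group. Leaving out single libraries called 0 to 2 genes in KO against Ctrl, 0 to 1 in OE against Ctrl and 0 to 2 in OE against KO, and 0 copies in each. Leaving out Ctrl 3, OE 3 and OE 4, chosen after seeing the data, called 1 gene (Gm13015) in OE against Ctrl and 1 in OE against KO. Directions turned for Rpl19-ps1 in OE against Ctrl without Ctrl 2 (0.082, and -2.49 to 0.082 over all single libraries left out), Rps2 in OE against KO without OE 1 (0.087, and -1.05 to 0.087 over single libraries), and Rps2 in KO against Ctrl with all copies added, also chosen after seeing the data (0.17). The difference of Rpl30-ps8 in KO against Ctrl went to 0 without Ctrl 3, alone or with OE 3 and OE 4 (-2.11 to 0 over single libraries), since the copy was then listed at 0 in every Ctrl and KO library. With the TPM as deposited, the median of all genes moved from 0.04 to 0.38 in KO against Ctrl and from 0.02 to 0.36 in OE against Ctrl, and those of the copies from 0.57 to 0.93 and from 0.51 to 0.94. The median of the copies in OE against KO was 0.26 without KO 1 and 0.17 with the replicate block. The median log2 ratio to the parent, -1.06 in Ctrl, -1.11 in KO and -0.77 in OE, was 0.11 in KO and 0.15 in OE over the 43 copies at 5 TPM or more in 2 libraries, and 1.53, 1.86 and 1.64 over the 21 at 1 TPM or more in all 10. Fewer copies enter these medians. Without Rpl38-ps2, chosen after seeing the data, the share of ribosomal protein TPM was 19.5% in Ctrl, 23.3% in KO and 22.2% in OE. Pooled over the copies, 69.5% of 50-base windows were in the parent, against 75% of windows of 36 bases and 62.2% of 75. Leaving out the 3 copies annotated as protein-coding was also chosen after seeing the data and gave no call. Unknown depth and 2 KO libraries limit all of these values.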

Other observations

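The other 2 genes called in OE against Ctrl with the replicate block were named after their values were seen. Gm6311 is a processed pseudogene on chromosome 13 with 98.9% identity to Rps2 over 879 bases. It was at 0.700, 0 and 1.04 scaled TPM (Ctrl 1 to 3), 123 and 263 (KO 1 and 2), and 152, 140.4, 77.0, 3.91 and 3.51 (OE 1 to 5). As for Rps2-ps10 and Rps2-ps13, Ctrl 1 to 3, OE 4 and OE 5 were low, and both KO libraries, OE 2 and OE 3 were high. OE 1 was high for Gm6311 and Rps2-ps10 and at 3.32e-08 for Rps2-ps13.

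Atp6v0c encodes a subunit of the vacuolar proton pump and lies 554 kb from Rps2 on chromosome 17. It was at 59.1, 63.1 and 53.6 scaled TPM (Ctrl 1 to 3), 30.5 and 34.1 (KO 1 and 2), and 2.67, 5.39, 1.42, 42.3 and 62.4 (OE 1 to 5). OE 4 and OE 5 were near or within the Ctrl range, and OE 1 to 3 and both KO libraries were lower. Rps2 had its lowest scaled TPM in OE 1 to 3 as well, at 69.7, 312 and 114. With the block the log2 difference was -3.95 for Atp6v0c and 6.30 for Gm6311 (limma adjusted p = 0.0494 for each), and without it neither was called. The block leaves OE 4 and OE 5 out of these differences, since no other group has their replicate numbers. In both libraries the 2 genes were nearer to Ctrl than in OE 1 to 3.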
